A study of Mus musculus with 18 samples.

Results

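Among 12 mouse liver tumours of the same induction scheme, genes of the circadian clock lay at different levels, and the tumours were divided into a low set of 7 and a high set of 5 by these levels. The 12 tumours belong to a series of 18 arrays, which also holds 3 normal livers and 3 tumours of mice given antibiotics. Tumours numbered 16, 17, 18, 19, 20, 23 and 24 in their titles made up the low set, and tumours 21, 22, 25, 26 and 27 the high set. The tumours were selected on measured values of the same arrays, the mean of Dbp, Nr1d1 and Per2 among other clock genes, so the levels of clock genes are given here as a description without a test. What was tested is which other genes of the array followed the same split, with genotype as a covariate, and these tests too use the arrays on which the split was seen.

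Tumours 16 to 22 came from male C3H/HeOuJ mice with wild-type (WT) Tlr4, 5 of them in the low set and 2 in the high set. Tumours 23 to 27 came from male C3H/HeJ mice, whose Tlr4 carries the Tlr4P712H mutation, with 2 in the low set and 3 in the high set. Every tumour-bearing mouse received the carcinogen diethylnitrosamine (DEN) at 100 mg/kg in week 12 and 6 injections of the hepatotoxin CCl4 at 0.5 ml/kg from week 13 to week 23, and was killed at 54 weeks. Since the genotypes are also different substrains, the covariate takes up both at once. Tissue was dissected from hepatocellular carcinoma lesions. The labels describe a light-dark cycle but give no hour of collection, and they do not say whether the tumours came from separate mice, so the p-values rest on the spread of these 12 samples, which may be partly technical. Within each genotype the low set carries the lower title numbers, and the labels do not say what the numbers stand for. The antibiotic tumours (numbers 28 to 30) came from WT mice on the same scheme with ampicillin, neomycin, metronidazole and vancomycin in the drinking water, and the normal livers came from untreated WT mice of 15 weeks.

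The circadian clock of liver cells is a feedback loop. BMAL1, encoded by Arntl, pairs with CLOCK or NPAS2 and switches on genes with an E-box, among them the period genes Per1, Per2 and Per3, the cryptochromes, Nr1d1, Nr1d2, Ciart and Dbp. The PER and CRY proteins then repress BMAL1 and CLOCK, while the REV-ERB proteins of Nr1d1 and Nr1d2 repress Arntl, Npas2, Clock and Nfil3 through elements that the ROR proteins activate. The factors DBP, TEF and HLF activate genes with a D-box, and NFIL3 represses them. In mouse liver Arntl and the Per and Dbp transcripts peak at roughly opposite times of day, and many genes of lipid, bile acid and glucose metabolism follow.

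Promoter sequences are shown here for the clock genes that held a motif of these factors, and for the called members of a list of clock output genes described below that did, since it is the levels of their transcripts that are compared between the sets. They come from RefSeq's mouse annotation on GRCm38.p6 and were searched, on both strands, over 250 bases before and 50 after each start for the E-box CACGTG, the D-boxes TTATGTAA and TTACGTAA, and TAGGTCA, a core of ROR elements. Capitals mark the motif as it reads on the gene's strand, and no motif overlapped another in these windows.
Per1, chr11:69098753-69098818, plus strand, E-box: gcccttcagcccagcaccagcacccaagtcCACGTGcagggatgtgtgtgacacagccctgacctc
Tef, chr15:81802516-81802581, plus strand, E-box: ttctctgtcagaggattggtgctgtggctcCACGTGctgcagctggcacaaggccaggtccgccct
Tef, second start, chr15:81811246-81811311, plus strand, E-box: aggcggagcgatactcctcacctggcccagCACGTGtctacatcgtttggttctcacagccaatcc
Cry1, chr10:85185079-85185144, minus strand, E-box: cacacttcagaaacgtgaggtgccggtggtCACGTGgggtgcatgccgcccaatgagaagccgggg
Ciart, chr3:95882237-95882374, minus strand, E-box: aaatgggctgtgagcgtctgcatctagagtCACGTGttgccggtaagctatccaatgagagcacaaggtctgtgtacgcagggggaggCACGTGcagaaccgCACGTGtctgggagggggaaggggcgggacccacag
Per3, chr4:151044786-151044900, minus strand, D-box: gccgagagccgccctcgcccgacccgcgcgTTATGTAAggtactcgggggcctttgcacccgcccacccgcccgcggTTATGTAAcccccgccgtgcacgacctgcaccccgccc
Coq10b, chr1:55052578-55052727, plus strand, D-box and E-box: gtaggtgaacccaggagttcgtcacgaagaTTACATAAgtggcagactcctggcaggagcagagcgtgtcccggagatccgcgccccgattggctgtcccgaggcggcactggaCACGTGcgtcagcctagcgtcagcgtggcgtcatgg
Cipc, chr12:86947296-86947342, plus strand, E-box: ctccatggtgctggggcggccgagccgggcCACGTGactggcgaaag
Tspan4, chr7:141476299-141476364, plus strand, E-box: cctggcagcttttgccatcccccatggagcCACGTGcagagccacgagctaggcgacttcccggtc
Nfil3, chr13:52981040-52981081, minus strand, ROR element core: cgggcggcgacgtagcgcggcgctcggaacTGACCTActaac
Arntl, chr7:113207530-113207558, plus strand, ROR element core: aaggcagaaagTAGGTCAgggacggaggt

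An E-box was found in 4 of the 14 clock genes with a promoter entry, Ciart, Cry1, Per1 and Tef (28.6%), against 12.5% of the 7410 tested genes with an entry and 8.09% of all 27025 genes in the RefSeq table. Among the genes that later passed the test as higher in the high set, 33 had a promoter entry and 4 of these held an E-box (Cipc, Coq10b, Kcnk5 and Tspan4), a share of 12.1% that is close to that of all tested genes; so did Lasp1 and Pfn2 among the 20 lower genes with an entry (10.0%). A D-box was found in Per3 alone among the clock genes, in Baz1b and Coq10b among the higher genes (6.06%) and in 0 of the lower genes, against 0.985% of tested genes. The ROR core was found in Arntl and Nfil3 among the clock genes, in Aifm2 and Slc37a4 among the higher genes (6.06%) and in Elf1 among the lower ones (5.0%), against 2.6% of tested genes, so genes of both directions held it. These matches describe the letters of the windows and were not set against binding data.

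Values are GCRMA signals on the log2 scale, so a difference of 1 is a 2-fold change. A gene was tested if a probe set of it lay above log2 4 on at least 3 of the 18 arrays, and a value under 4 is treated here as not above background. This left 9053 genes, 16 of them in the list of 19 clock genes. The medians of the 12 tumour arrays ran from 6.73 to 6.85, and between 14617 and 15275 probe sets lay above log2 4. RNA integrity, read as the 3′ minus 5′ signal of Gapdh controls, was 0.20 to 0.56 in the low set and 0.51 to 1.02 in the high set. The part of RNA integrity in the results was not tested. WT tumours 17 and 19, both in the low set, stood apart on the first principal component. Their scores were 82.8 and 77.3 against -43.6 to 12.4 for the others. Counts of called genes are also given without these tumours.

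The label of these sets was first set against its markers. Dbp, an output factor of the clock, was at 10.05, 9.76, 11.26, 10.93 and 12.31 in WT tumours 16 to 20 and at 12.38 and 12.12 in WT tumours 21 and 22. In the mutant tumours it was at 6.77 and 7.37 in numbers 23 and 24 and at 12.55, 12.53 and 12.47 in numbers 25 to 27. The mutant sets were thus far apart, while WT tumour 20 reached the Dbp level of the high set. Per2, a repressor of the loop, was at 5.93, 6.11, 5.84, 5.68 and 6.31 in the low WT tumours and 7.91 and 8.67 in the high ones, and at 4.65 and 4.15 against 8.10, 8.46 and 8.02 in the mutant tumours. It did not overlap in either genotype. Nr1d1 carried no information, since its probe set lay below background on all 18 arrays, with a highest value of 3.47. The mean of the 3 markers was 7.30 in WT tumour 20, the highest of the low set, and 7.82 in mutant tumour 27, the lowest of the high set. The lowest means, 4.88 and 4.89, were those of mutant tumours 24 and 23, and the other low WT tumours ran from 6.20 to 6.75. The low set is therefore not uniform, and the names low and high are used instead of a phase.

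The repressors of the loop and the D-box activators lay higher in the high set (high minus low, with genotype as a covariate, ± SE, 5 against 7 tumours). Per3 was at 3.91, 3.0, 5.08, 5.66 and 6.69 in WT tumours 16 to 20, at 7.51 and 7.22 in 21 and 22, at 2.92 and 2.89 in mutant tumours 23 and 24 and at 8.34, 8.62 and 8.86 in 25 to 27. Its difference was 3.96 ± 0.72, and the sets did not overlap in either genotype, although the WT low set spread over more than 3 log2 units. Per1 differed by 2.34 ± 0.35, from 2.7 to 4.48 in the low set to 5.16 to 6.41 in the high set. Per2 differed by 2.99 ± 0.28. Ciart, a repressor of BMAL1 and CLOCK also known as CHRONO, was at 2.69 to 3.83 in the low set, below background throughout, and at 4.22 to 5.81 in the high set, which was thus at least 2.32-fold higher on average.
Among the D-box activators Dbp differed by 3.24 ± 0.72, Tef by 2.26 ± 0.30 and Hlf by 1.46 ± 0.49. Tef kept its sets apart in all 12 tumours, with 7.12 to 8.85 against 9.73 to 10.55. The cryptochromes differed less: Cry2 differed by 1.08 ± 0.30 and Cry1 by 0.42 ± 0.50, with overlapping sets. Nr1d2, the REV-ERB gene that was measured, differed by 0.68 ± 0.24, Bhlhe40 by 0.86 ± 0.30 and Rora by 0.46 ± 0.17.

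The activators of the loop and NFIL3 lay the other way. Arntl was at 7.21, 6.82, 7.01, 5.59 and 3.72 in WT tumours 16 to 20 and at 3.74 and 3.09 in 21 and 22. In the mutants it was at 8.23 and 8.33 against 2.54, 2.51 and 2.29. Every tumour of the high set was below background for Arntl, so the low set was at least 6.49-fold higher on average, and WT tumour 20 again stood with the high set. Clock was at 8.50, 8.25, 8.17, 8.40 and 7.44 in the low WT tumours against 7.51 and 7.22 in the high ones, and at 8.27 and 8.59 against 6.04, 6.26 and 5.41 in the mutants, a difference of -1.58 ± 0.33. Npas2, the partner that can replace CLOCK, was below background in every high tumour and in WT tumours 18, 19 and 20 of the low set, and at 4.30, 4.83, 5.10 and 4.56 in tumours 16, 17, 23 and 24. The low set was thus at least 1.05-fold higher on average, a bound near no difference. Nfil3 differed by -1.21 ± 0.65, with -0.08 in WT and -2.56 in mutant tumours.
In all, 12 of the 16 tested clock genes had a positive difference and 4 a negative one, and Tef, Hlf, Per1, Per2, Per3 and Ciart did not overlap within either genotype, higher in each case, as did 2.72% of the genes outside the clock list. Bhlhe41 was below background like Nr1d1.

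**Figure D1:**
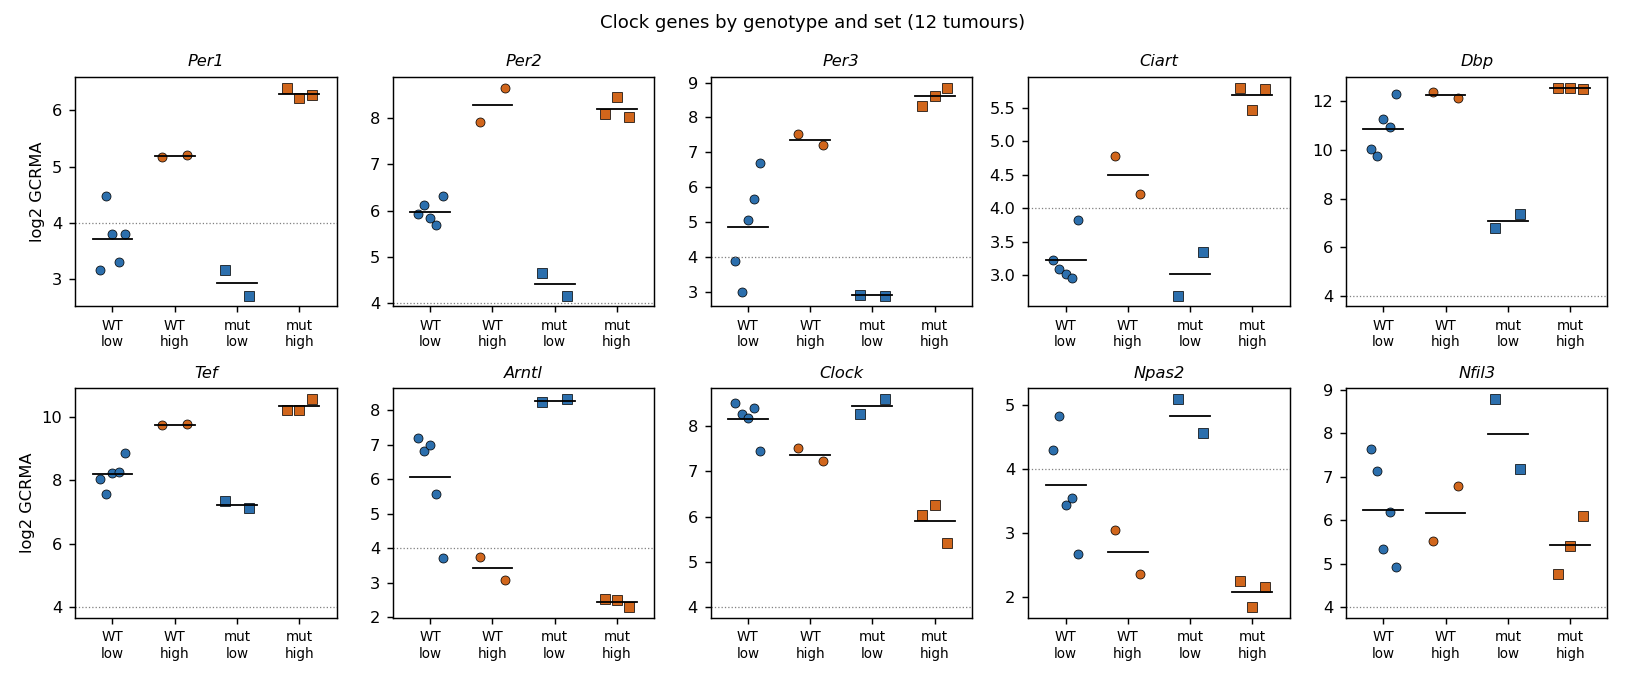
log2 GCRMA level (vertical axes, one range per gene) of 10 clock genes in the 12 tumours, by genotype and set; circles are WT tumours, squares Tlr4 mutant tumours, blue the low set, orange the high set, bars the means and the dotted line log2 4. The 2 low mutant tumours lie further from the high set than the low WT tumours do for Dbp, Per2 and Arntl, and 1 low WT tumour reaches the high set for Dbp and Arntl.

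Several of these genes differed more between the sets in mutant than in WT tumours. Dbp differed by 5.45 in mutant and 1.39 in WT tumours, Per3 by 5.70 and 2.50, Per1 by 3.37 and 1.48, and Arntl by -5.83 and -2.65. Cry1 had opposite signs, -0.34 in mutant and 1.06 in WT tumours. These contrasts between genotypes are a description, and no p is given for them, since they rest on the genes that made the split. Taking each tumour gene by gene, WT tumours 16, 17, 18, 19 and 20 were nearer the high WT mean in 1, 4, 2, 7 and 8 of the 16 clock genes, and mutant tumours 23 and 24 in none.

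The arrays outside the split lay with the high set for most clock genes and not for all. Of the 16 genes, 14, 13 and 13 were nearer the high than the low WT mean in antibiotic tumours 28, 29 and 30, and 12, 13 and 14 in the 3 normal livers. Rora was nearer the low mean in all 6 of these arrays, at 9.30 to 10.19, and Nfil3 in all but antibiotic tumour 30. Arntl was at 2.90, 2.91 and 2.85 in the antibiotic tumours and at 2.91, 2.82 and 3.34 in the normal livers, all below background, and Per2 was at 8.54, 8.12 and 7.82 and at 7.79, 7.76 and 7.65. The mean of the markers was 7.55 to 7.86 in the antibiotic tumours and 7.83 to 7.98 in the normal livers, against 7.82 to 7.95 in the high set. Of the 18 arrays, the low 7 were thus the ones with Arntl above 5 or, for WT tumour 20, with Per2 below 7.

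**Figure D2:**
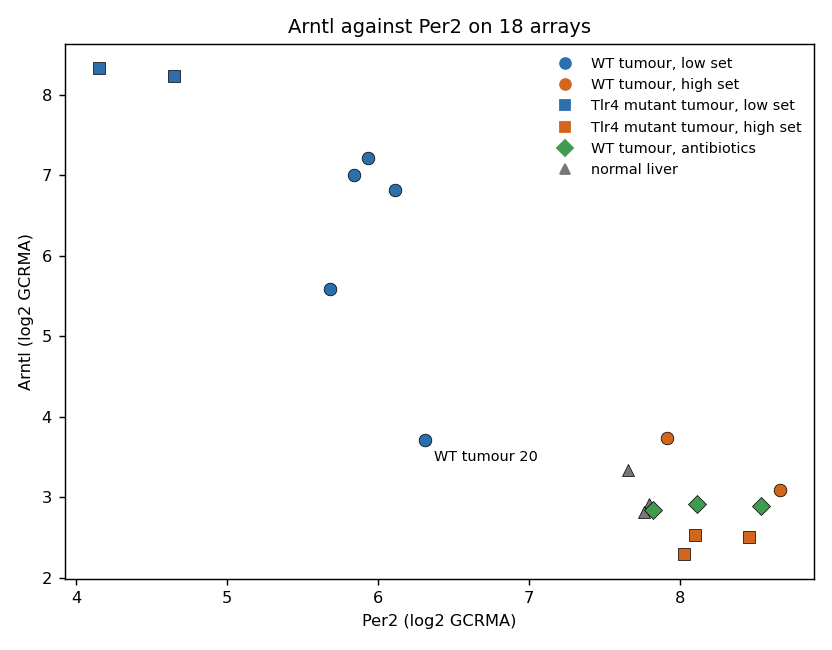
Arntl against Per2, both as log2 GCRMA levels, on all 18 arrays (circles WT tumours, squares Tlr4 mutant tumours, diamonds antibiotic tumours, triangles normal livers; blue low set, orange high set). The high set, the antibiotic tumours and the normal livers share the corner of low Arntl and high Per2, the 2 low mutant tumours lie at the opposite corner, and WT tumour 20 lies at 6.31 for Per2 and 3.72 for Arntl.

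Outside the clock list, 66 of 9037 genes followed the split at a limma adjusted p under 0.05: 41 were higher in the high set (0.454% of the genes tested) and 25 lower (0.277%), 25 and 13 of them by at least 2-fold. At an unadjusted p under 0.05 there were 1516. The fit selects genes whose sets lie apart, so non-overlap among the 66 follows largely from the selection and is only a description. In 65 of the 66 the sets did not overlap within WT and within mutant tumours (Lonrf1 overlapped in WT). Over all genes, this was met by 2.72% in the higher and 2.57% in the lower direction. The counts rested on single tumours: the 66 became 8 without WT tumour 22, 12 without mutant tumour 24, 20 without 25, 31 without 27, 34 without 26 and 35 without 23. They became 40 without WT tumour 18, 44 without 16, 69 without 17, 70 without 19, 78 without 21 and 116 without 20. Without WT tumours 17 and 19 together they became 96, and 48 of these were shared. Without tumours 17 and 19, 18 of the 66 lost their call, among them Mpzl1, Mfsd2a, Kcnk5, Pfn2, Asap2, Pcsk4 and Pnrc1. Centring each array on its median gave 40 higher and 44 lower, so the balance between the directions depends on the scaling.

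The largest rise was that of Usp2, a deubiquitinating enzyme whose substrates include clock proteins and whose transcript is itself rhythmic in liver. It was below background in every low tumour, with 2.93, 2.66, 2.96, 3.28 and 2.84 in WT tumours 16 to 20 and 2.89 and 2.31 in mutant tumours 23 and 24. In the high set it was at 8.04 and 8.10 in WT tumours and 7.91, 7.62 and 9.07 in mutant tumours. That is at least 17.7-fold higher, and the measured difference was 5.35 ± 0.25 (SE, limma adjusted p = 1.73e-06). None of the 12 tumours lay between 3.28 and 7.62 and here WT tumour 20 stood with the low set. The difference of Usp2 stayed between 5.15 and 5.45 with each of the 12 tumours left out in turn. The antibiotic tumours were at 8.57, 7.41 and 9.07 and the normal livers at 9.30, 9.32 and 9.61.

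Noct encodes nocturnin, an enzyme named for its rhythmic expression. It was at 6.09, 7.29, 4.82, 4.82 and 4.89 in low and 9.44 and 9.23 in high WT tumours, and at 3.24 and 3.92 against 8.18, 7.57 and 9.07 in mutant tumours, a difference of 4.19 ± 0.48 (limma adjusted p = 0.00495). The sets were close at their edges, at 7.29 and 7.57, and far apart within each genotype. Mfsd2a, a carrier of lysophosphatidylcholine, differed by 3.74 ± 0.74 (limma adjusted p = 0.0472) but overlapped between genotypes: WT tumour 20, at 6.38, lay above mutant tumours 25 and 26, at 5.88 and 5.5. Its call was kept in 2 of the 12 fits that each left out 1 tumour. Nrg4, a secreted ligand of the ErbB4 receptor, rose by 3.29 ± 0.64 (limma adjusted p = 0.0443). In the low WT tumours it was at 5.66, 2.96, 6.34, 2.92 and 5.82, the lowest being tumours 17 and 19, against 7.49 and 8.38, and in mutant tumours at 5.37 and 5.10 against 8.66, 9.02 and 8.22. Its call was kept in 4 of the 12 fits.

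Several enzymes of cofactor and lipid metabolism followed. Nmrk1, a kinase that makes NAD precursors from nicotinamide riboside, was at 6.22 to 7.59 in low and 8.22 and 9.56 in high WT tumours, and at 6.20 and 6.01 against 8.97, 9.15 and 8.98 in mutants, a rise of 2.39 ± 0.34 (limma adjusted p = 0.0132). Coq10b, a coenzyme Q binding protein of mitochondria, was at 8.54, 8.48, 8.40, 8.78 and 9.0 against 9.90 and 10.19 in WT and at 7.06 and 7.40 against 10.32, 10.32 and 10.32 in mutant tumours. It rose by 2.17 ± 0.28 (limma adjusted p = 0.0071) and was called in all 12 fits that left out a tumour. Its promoter, printed above, held both an E-box and a D-box. St3gal5, the synthase of the ganglioside GM3, rose by 1.68 ± 0.22 (limma adjusted p = 0.0071), and Slc37a4, the glucose-6-phosphate carrier of the endoplasmic reticulum, by 1.58 ± 0.21 (limma adjusted p = 0.00815). Ppara, the nuclear receptor that drives fatty acid oxidation, rose by 1.10 ± 0.16 (limma adjusted p = 0.0132), from 9.46 to 10.23 in the low set to 10.78 to 11.37 in the high set. Smaller rises were those of Pank1, a kinase of coenzyme A synthesis (0.73 ± 0.12), Trib1, a pseudokinase tied to lipid levels (0.99 ± 0.13), and Dgat2, an enzyme of triglyceride synthesis (0.62 ± 0.12). Dgat2 lost its call in each of the 12 fits that left out a tumour.

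Other genes of the 10 largest rises were Dclre1a, a nuclease of DNA crosslink repair (2.07 ± 0.32), the potassium channel gene Kcnk5 (2.00 ± 0.38) and the transcript A930033H14Rik (2.37 ± 0.24; at least 2.52-fold, as its low set was below background). Dclre1a was at 5.66 to 6.06 in the low set, a spread of less than 0.5, and at 6.55 to 8.70 in the high set. Of the 12 fits that each left out 1 tumour, 10 kept the call for Dclre1a, 4 for Kcnk5 and 12 for A930033H14Rik. Called genes with smaller rises were Gart and Ppat of purine synthesis, Riok2, a kinase of small ribosomal subunit maturation, the Wnt receptor gene Fzd4, and Cipc, a CLOCK-interacting repressor. Their differences were 0.79, 0.95, 1.29, 1.06 and 1.27. Ppat, Rangap1 and the lower gene Lasp1 lost their call when probe sets prone to hybridise with several transcripts were left out. Lasp1 was then at -0.64, and Lyz1, another lower gene, had no probe set left.

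The largest fall was that of Mpzl1, which codes for a cell surface glycoprotein that binds the phosphatase SHP-2. It was at 6.65, 8.96, 8.07, 9.08 and 7.13 in low and 6.42 and 5.72 in high WT tumours, and at 7.62 and 8.19 against 5.35, 5.15 and 4.11 in mutants. It fell by 2.42 ± 0.49 on the log2 scale (limma adjusted p = 0.0488), and the call was kept in 2 of the 12 fits. Spon2, a secreted matrix protein, was at 4.53 to 6.18 in the low set and below background in every high tumour, which bounds its fall at 1.93-fold or more (limma adjusted p = 0.0153). It met the filter through the low set, and antibiotic tumour 30 was the only other array above log2 4. Cmpk2, a mitochondrial nucleotide kinase that interferon induces, was at 6.52, 6.12, 5.75, 5.75 and 6.26 against 5.01 and 4.14 in WT and at 5.47 and 6.13 against 3.92, 3.77 and 3.33 in mutant tumours. It fell by 1.79 ± 0.24 (limma adjusted p = 0.0071).
Bok, a member of the BCL2 family, was at 6.37 to 6.84 in low and 5.59 and 5.21 in high WT tumours, and at 7.06 and 7.17 against 5.17, 4.92 and 5.10 in mutants. Its fall of 1.60 ± 0.17 (limma adjusted p = 0.00266) was called in all 12 fits that left out a tumour. Asap2, which codes for a regulator of ARF GTPases, was below background in every high tumour and also in WT tumours 16, 18, 19 and 20. No fold is therefore given. Asap2 met the filter only through low tumours 17, 23 and 24, so its p (limma adjusted p = 0.031) is not independent of the filter. The call was kept in 4 of the 12 fits.
Ccng2, an unusual cyclin linked to growth arrest, fell by 1.41 ± 0.23, and Clpx, the chaperone of a mitochondrial protease, by 1.38 ± 0.28. The ubiquitin ligase gene Trim2 fell by 1.26 ± 0.23, Pfn2, an actin-binding profilin, by 1.20 ± 0.23, and Tmem140 by 1.19 ± 0.21. Of the 12 fits, 6 kept the call for Ccng2, 3 for Clpx, 5 for Trim2, 3 for Pfn2 and 7 for Tmem140. The remaining falls ran from 0.45 (Bmt2) to 1.18 (C730049O14Rik) in size and included Anxa5, an annexin (0.77 in size, limma adjusted p = 0.0275), the desmosome gene Dsp, the actin-binding gene Lasp1 and the lysozyme gene Lyz1. For 32 of the 66 genes 49 further probe sets were above background, and 48 of these had the direction of the gene. The exception was Plekha8 at -0.03. Sign alone says little, as these are the same arrays and several further probe sets lay near no difference. Those of Gart, Chmp3 and Myo1e were at 0.08, -0.10 and 0.11 (limma adjusted p = 0.826, 0.701 and 0.757). Others passed on their own, such as those of Coq10b at 2.03 and Nrg4 at 2.73 (limma adjusted p = 0.00277 for both).

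**Figure D3:**
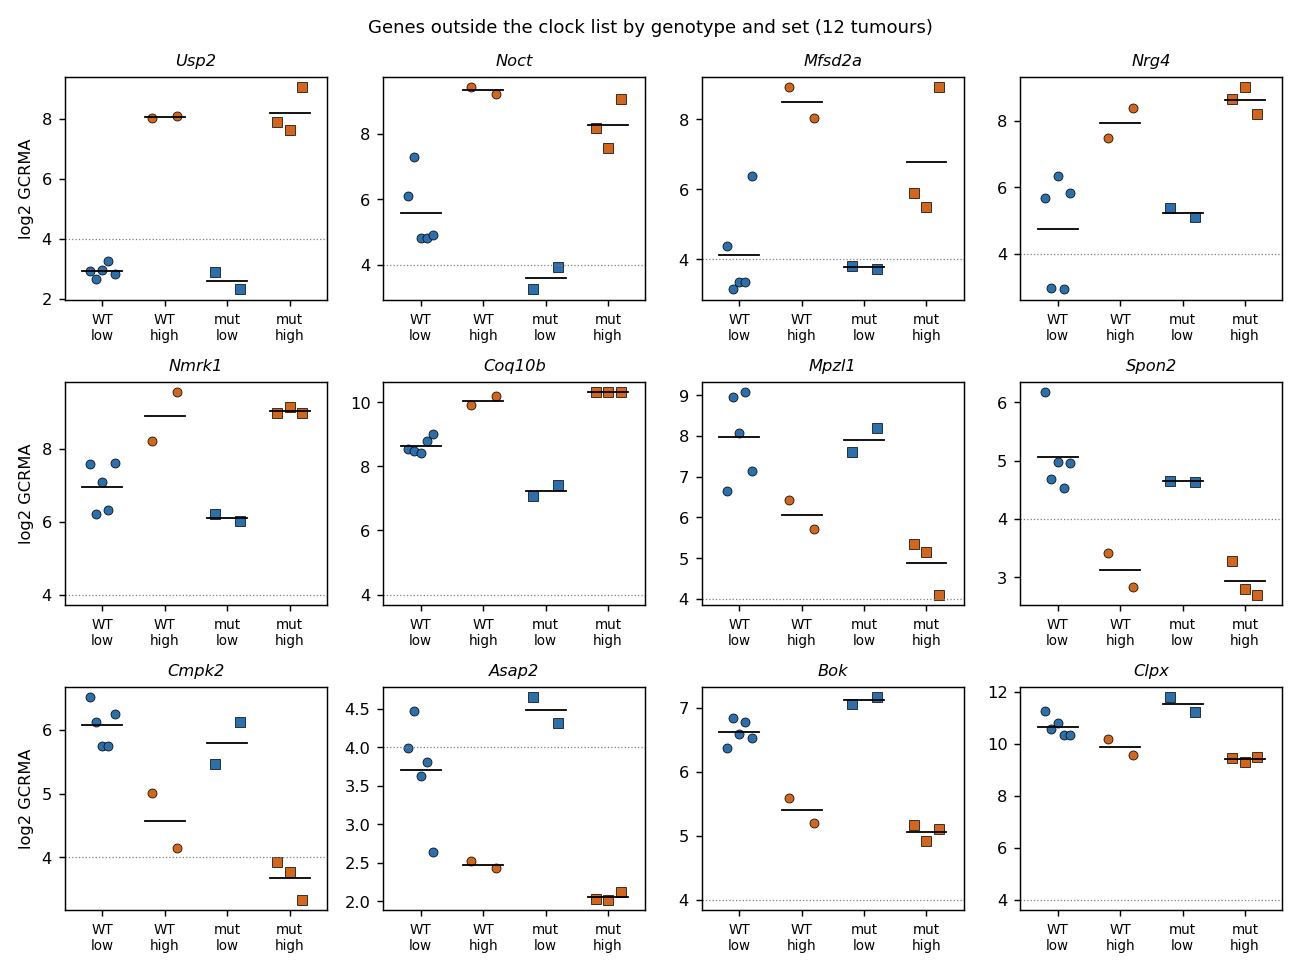
log2 GCRMA level (vertical axes, one range per gene) of 12 genes outside the clock list in the 12 tumours, by genotype and set, with symbols as in the plot of clock genes; bars are means and the dotted line is log2 4. Usp2 lies below log2 4 in all 7 low tumours and above 7 in all 5 high tumours, whereas Mfsd2a overlaps between the genotypes.

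Over all genes, the differences found in the 2 genotypes were weakly related. The difference in WT tumours and that in mutant tumours, which share no array, correlated across the 9037 genes outside the clock list with a Pearson r of 0.148; genes are not independent replicates, and the value is a description. A total of 230 genes were at least 2-fold higher in the high WT tumours without overlap with the low ones. When these were read in the mutant tumours, 114 (49.6%) had the same direction, against 50.9% of all genes, and 45 (19.6%) were higher without overlap, against 19.4% of all genes. At this cut-off the rises of WT tumours were thus not found more often in mutant tumours than in genes at large. For WT differences of at least 0.5 the share was 62.0% and at 2 it was 37.9%, both against 50.9%. The share at 2-fold also moved with single mutant tumours. It was 78.7% without tumour 23 (all genes 52.9%), 69.1% without 26 (50.7%), 36.5% without 27 (51.2%) and 33.0% without 24 (49.7%). Of 106 genes at least 2-fold lower in the high WT tumours, 72 (67.9%) were lower in the mutants too, against 49.1% of all genes, and 34 (32.1%) without overlap, against 16.4%. That share was 50.9% without tumour 24, where all genes were at 50.3%, and 84.0% without tumour 23.

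Some genes of mature hepatocytes, among the 230 of 9037 genes counted above, lay apart between the sets in WT tumours and overlapped in mutant tumours. Slco1a1, an uptake carrier for bile acids and organic anions, was at 9.86, 1.93, 3.88, 4.90 and 3.56 in low and 10.20 and 10.01 in high WT tumours, but at 8.19 and 5.26 against 7.86, 3.0 and 8.80 in mutant tumours. Cyp2f2, a cytochrome P450 of periportal hepatocytes, was at 11.46, 2.92, 7.99, 3.58 and 7.60 against 11.81 and 11.85 in WT and 12.28 and 10.71 against 10.81, 8.05 and 12.00 in mutant tumours. For both genes WT tumour 16 stood beside the high WT tumours. The lowest WT value was that of tumour 17 for both, followed for Cyp2f2 by tumour 19. Tumours 17 and 19 are those that stood apart on the first principal component. Ugt2b38, a glucuronosyltransferase gene, was the only 1 of 9053 genes (0.011%) whose difference itself differed between genotypes (limma interaction adjusted p = 0.0453; 700 genes at an unadjusted p under 0.05). It was at 7.91 and 8.94 in the high WT tumours and below background in all other WT and mutant tumours of the split. The Ugt2b genes are a family of near-identical copies, and this count was 0 without WT tumour 16, 17, 18, 19, 20 or 22 or mutant tumour 23, 25, 26 or 27, and 2 without WT tumour 21 or mutant tumour 24. Elovl3, a fatty acid elongase known as an output of the clock, went opposite ways: it was 3.89 higher in the high set of WT tumours and 4.84 lower in that of mutant tumours, where tumours 23 and 24 were at 10.68 and 7.85 against 5.08, 2.22 and 5.99. The limma interaction adjusted p for Elovl3 was 0.368.

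**Figure D4:**
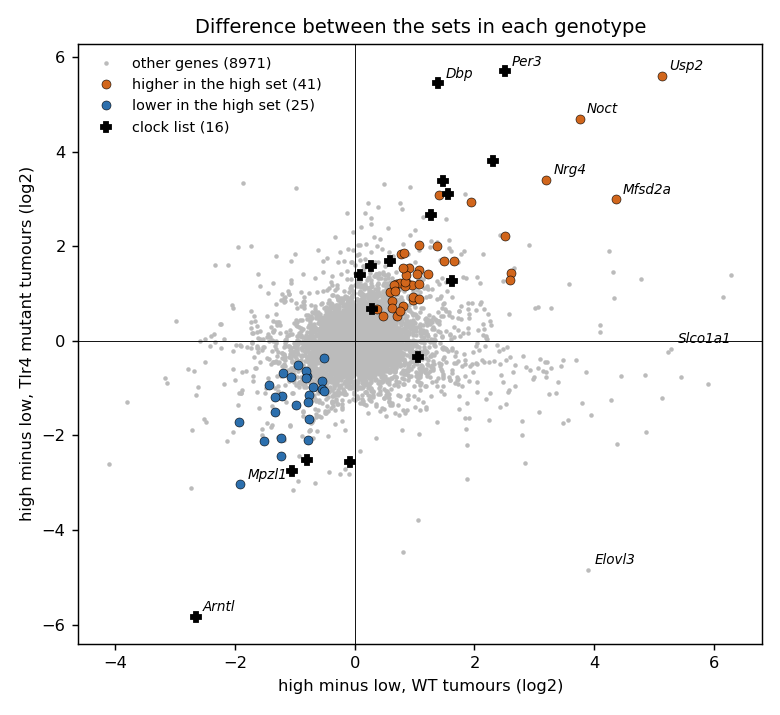
Difference between the sets (high minus low, log2) in WT tumours (horizontal) against that in Tlr4 mutant tumours (vertical) for each tested gene; orange and blue circles are the 41 higher and 25 lower genes, black crosses the 16 clock genes and grey dots the other 8971. The called genes lie in the corners where both genotypes point the same way, which the fit over both genotypes selects, and genes such as Slco1a1 lie far to the right at a mutant difference near 0.

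A list of genes known as clock outputs in liver was read next. Of its 38 tested members 7 were higher (Cipc, Coq10b, Noct, Nrg4, St3gal5, Tspan4 and Usp2). The 1 lower member, Asap2, met the filter only through low tumours. The median difference was 0.79 against 0.02 over all genes. Set beside the 0.454% and 0.277% called over all genes, that is 7 and 1 of 38; the list was drawn up with earlier results of these data known. Of these 8 calls, 8 held without WT tumour 17, 19 or 20, 7 without 21, 6 without 18, 5 without 16, 3 without 22 and 4 without any 1 of the 5 mutant tumours, and 6 without tumours 17 and 19 together. The other 30 did not pass. Cyp7a1, which catalyses the first step of the classic bile acid pathway, had a difference of 2.76 ± 1.11 (limma adjusted p = 0.243): it was at 4.26 to 8.77 in low and 10.89 and 10.73 in high WT tumours, yet at 9.12 and 5.96 against 9.0, 6.15 and 10.15 in mutants. Alas1, the first enzyme of haem synthesis, had 2.42 ± 0.57 (limma adjusted p = 0.0733), Upp2, a uridine phosphorylase, 3.19 ± 1.13 (limma adjusted p = 0.186), the mitotic kinase gene Wee1 1.70 ± 0.45 (limma adjusted p = 0.0925), and Nampt, an enzyme of NAD synthesis, 0.82 ± 0.24 (limma adjusted p = 0.123). Gys2, the liver glycogen synthase, had 1.74 ± 0.39 (limma adjusted p = 0.0695).
Among 13 tested regulators of the clock proteins (kinases, ubiquitin ligases and their partners) only Usp2 passed, with the values given above. The other 12 lay between -0.49 (Prkaa1, a subunit of AMP kinase) and 0.57 (Rbm4b), so the transcripts of casein kinases Csnk1d and Csnk1e, at -0.16 and 0.28, were not among those called.

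The genes most like the marker mean over the 12 tumours, after centring within genotype, were Coq10b (r = 0.98), Gys2 (0.98), Riok2 (0.96), Pcsk4, a proprotein convertase (0.96), and Furin, another convertase (0.95). The most opposite were Asap2 (-0.98), Ypel2 (-0.97), Pnrc1 (-0.95), Bok (-0.95) and 0610009B22Rik (-0.94). Gys2 was at 9.38, 9.61, 10.42, 10.24 and 10.69 in low and 10.73 and 10.93 in high WT tumours, and at 8.93 and 9.06 against 11.87, 12.15 and 11.70 in mutants. WT tumour 20 was thus the nearest of the low set to the high WT tumours without reaching them, and the lowest values were those of the low mutant tumours, as for Dbp. Ypel2, which missed the threshold of the split, was at 8.75, 8.79, 8.43, 8.29 and 7.40 against 7.84 and 7.51 in WT and at 9.62 and 9.45 against 6.24, 6.55 and 6.77 in mutant tumours, and so ran with Arntl. These values are descriptions over arrays that include those of the split.

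Other gene groups held few called members. Of 18 genes of the fasting response Ppara was called higher and 12 had a positive difference (median 0.50); Pck1, the gluconeogenic enzyme, had 1.48 ± 0.60 (limma adjusted p = 0.245) and Pdk4, a kinase induced on fasting, -1.97 ± 0.96 (limma adjusted p = 0.327). Of 19 genes of lipid synthesis limma called 0 (11 at an unadjusted p under 0.05) and 17 had a positive difference (median 0.63); Fasn, the fatty acid synthase, had 0.80 ± 0.23 (limma adjusted p = 0.11) and Thrsp, a lipogenic regulator, 1.98 ± 0.66 (limma adjusted p = 0.163). Genes of cholesterol synthesis had a median of 0.07, with 10 of 19 positive and 0 called by limma (2 at an unadjusted p under 0.05).
Some lists without a called gene lay mostly below 0. Negative differences were found in 22 of 24 genes of the endoplasmic reticulum stress response (median -0.33; 10 at an unadjusted p under 0.05 by limma), in 18 of 21 Nrf2 targets (median -0.35; 3) and in 19 of 23 cell cycle genes (median -0.51; 6). Of 17 ribosome genes 16 were negative, all by small differences, with a median of -0.13 and a lowest value of -0.21 (2 at an unadjusted p under 0.05 by limma). The cell cycle genes ran differently in the genotypes: 18 of the 23 were negative in WT tumours (median -0.80) and 12 in mutant tumours (median -0.03). In mutant tumours 6 of the 23 were higher without overlap and 4 lower, against 19.4% and 16.4% of all genes. Of the 106 genes at least 2-fold lower in the high WT tumours, 7 were higher without overlap in the mutants. Among the cell cycle genes 3 went this way. Ccnb2, a mitotic cyclin, was 1.94 lower in the high WT tumours and 1.99 higher in the high mutant tumours. Birc5, which encodes survivin, was 2.34 lower and 1.61 higher, and Cdca3, a gene of mitotic entry, 1.61 lower and 1.40 higher. The sets of these 3 genes did not overlap in either genotype. The limma interaction adjusted p was 0.475, 0.475 and 0.477 for these genes, which were named after their values were seen. Sdf2l1, an endoplasmic reticulum chaperone partner, had -1.61 ± 0.35 (limma adjusted p = 0.0593), and Mki67, a marker of dividing cells, -0.42 ± 0.73 (limma adjusted p = 0.813), with 6.33 and 5.30 in the high WT tumours against 6.69 to 8.94 in the low ones. In the mutants its sets overlapped, at 4.37 and 6.57 against 7.84, 6.97 and 6.42, a difference of 1.60 in the other direction. Of 16 oncofetal genes Anxa5 was called lower and 13 had a negative difference; Afp, the fetal albumin homologue, was at -0.10 ± 0.33 (limma adjusted p = 0.909). Against a background where 4757 of 9053 genes had a positive difference, such counts describe the lists and were not tested as sets.

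**Figure D5:**
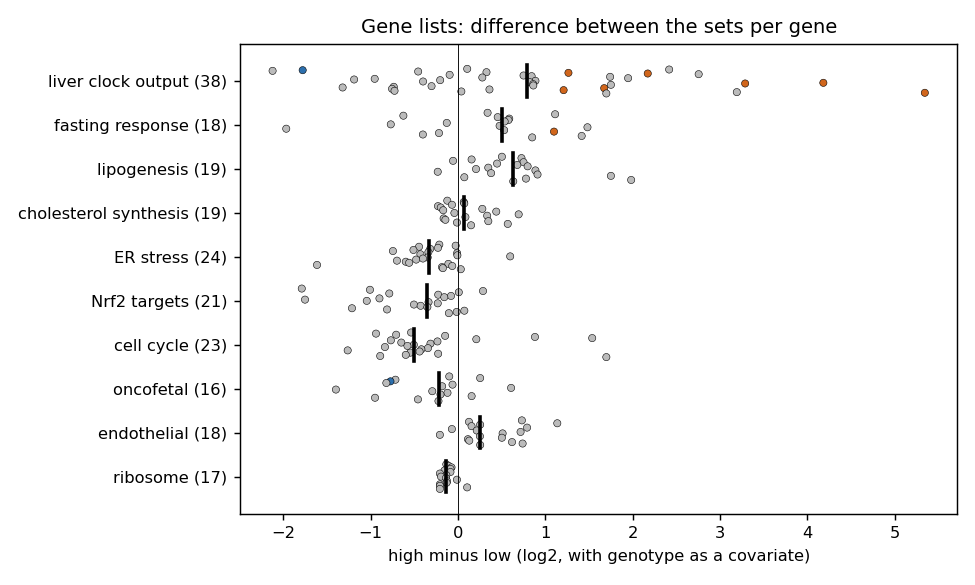
Difference between the sets (high minus low, log2, genotype as covariate) for each tested gene of 10 lists, with the number of genes after each name; orange and blue dots passed as higher or lower, grey dots did not, and the black bar is the list's median. Liver clock outputs reach furthest to the right with 7 higher genes. The bars of ER stress, Nrf2, cell cycle, oncofetal and ribosome genes lie below 0 in this fit over both genotypes.

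Markers of other cell types were read over the same sets, since in bulk tissue fewer cells of a type and less RNA per cell cannot be told apart. Of 69 tested markers in 11 lists limma called 0 (5 at an unadjusted p under 0.05). Hepatocyte genes averaged 11.94 to 12.86 in the low set and 12.64 to 12.99 in the high set. Endothelial markers averaged 3.36 to 6.69 in the low set and 6.07 to 6.69 in the high set; the low values were those of WT tumours 17 (3.36) and 19 (5.27), and 16 of 18 markers had a positive difference, with Pecam1 and Vwf below background. Macrophage markers averaged 5.16 to 8.10 and 5.68 to 7.67, with 5 of 16 positive. Stellate cell markers averaged 6.35 to 7.86 and 7.10 to 7.98, with 6 of 14 positive. Signs differed by genotype. Of 16 macrophage markers 3 were negative in WT (median 0.63) and 16 in mutant tumours (median -1.10). In mutants 8 of them were lower without overlap, against 16.4% of all genes. Endothelial markers were negative in 0 of 18 in WT (median 0.66) and 13 in mutant tumours (median -0.11). For stellate cell markers the counts were 8 and 12 of 14, and for dendritic cell markers 4 and 5 of 5. The T cell markers Cd3e, Cd4 and Cd8a were below background in all 12 tumours. The part of cell composition in the 66 calls was not tested beyond leaving out tumours 17 and 19.

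The called genes were last read in the arrays outside the split, as the number nearer to the high than to the low WT mean. Antibiotic tumours 28, 29 and 30 were nearer the high mean in 60, 47 and 33 of the 66 genes, against 67.3%, 56.3% and 53.2% of all genes. Although most of its clock genes stood with the high set, antibiotic tumour 30 was thus divided evenly over the called genes; Spon2 was at 6.05 there, as high as in the low set, and Usp2 at 9.07. The normal livers were nearer the high mean in 50, 51 and 52 of the 66, against 65.0% to 66.4% of all genes.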

How the data were processed

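Total RNA of 18 samples was hybridised to mouse 3′ expression arrays. The authors deposited log2 values made with GCRMA, per the submitters' processing notes; its version, background settings and array grouping are not given in the sources used here. GCRMA draws dim signals together, so differences near background are understated. Of 45101 probe sets, 34945 had 1 gene symbol in the platform annotation, 932 several and 9160 none; 64 controls were left out. Each gene was read from its probe set of highest mean among those above log2 4 on at least 3 of 18 arrays. Asap2 and Fam169b met this only through tumours of the set in which they lay higher. limma 3.58.1 (R 4.3.3) fitted genotype and set to the 12 tumours, with Benjamini-Hochberg adjustment over all 9053 genes and a two-sided threshold of 0.05; an interaction term was fitted separately. Clock genes stayed in the fit and out of the counts. The script was tested on simulated data. Named genes were the clock list, the 10 largest rises and falls past the threshold without overlap in either genotype, the leading genes of each of 38 lists, 14 preset genes (Tlr4 was below background and Por had no probe set with a single symbol) and the 10 genes most like or opposite to the marker mean. The members and lists were chosen with earlier results of these data known. Alternatives covered filters, probe sets, scaling, variance models, samples and thresholds. Figures used matplotlib 3.10.9.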

Additional observations from a re-analysis of the deposited data

Results flagged for a closer look

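Of 250 sets of values examined (125 named or called genes in each set), 15 held a tumour far from the rest of its set, where chance gives about 1 in 20. The value given is the tumour's gap to its nearest neighbour as a share of the set's range. WT tumour 20 was such a tumour in the low set for Clock (0.635, lowest), Mfsd2a (0.613, highest), Pcsk4 (0.723, highest) and Snx24 (0.61, lowest), in each case on the side of the high set. WT tumour 16 was lowest for Cd14 (0.58) and highest for Lonrf1 (0.67) and Spon2 (0.728) in the low set. WT tumour 17 was highest for Elf1 (0.678) and lowest for Marveld1 (0.622), and mutant tumour 23 was highest for the macrophage marker Cd163 (0.795) at 6.46 against 2.97. In the high set WT tumour 21 was lowest for Fam169b (0.812) and Rora (0.726), WT tumour 22 highest for Clec4g (0.783), mutant tumour 26 lowest for Gstm3 (0.737) and mutant tumour 27 highest for Pank1 (0.791).

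The difference between the sets differed between genotypes by the limma interaction test for Ugt2b38, with a mutant minus WT value of -5.46. For Elovl3 every high WT tumour lay above every low one and every high mutant tumour below every low one, a mutant minus WT value of -8.73 whose interaction test missed the threshold (limma adjusted p = 0.368). The same was seen in the other direction for the cell cycle genes Birc5, Ccnb2 and Cdca3, lower in the high WT and higher in the high mutant tumours, with mutant minus WT values of 3.94, 3.93 and 3.01 (limma interaction adjusted p = 0.475, 0.475 and 0.477). They were 3 of 23 cell cycle genes, of which 4 were lower without overlap in the high mutant tumours.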

How the results depend on the processing

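Against 41 higher and 25 lower genes, the alternatives gave 107 and 63 with all probe sets tested singly, 426 and 292 with array weights, 132 and 98 without the genotype covariate, 135 and 75 with the marker mean in place of the split, 8 and 1 in WT tumours alone, 20 and 11 in mutant tumours alone, 9 and 3 at an adjusted p under 0.01 and 25 and 13 at 2-fold or more. Lower genes numbered 44 on centred arrays, against 40 higher, and 45 without WT tumours 17 and 19. Leaving out each tumour gave 6 to 68 higher and 2 to 48 lower genes. The 1 gene with an interaction became 0 with no filter, with the filter on the tumour arrays, with all probe sets, without WT tumours 17 and 19 and at 0.01, 5 with array weights, and 0 to 2 with a tumour left out. The share of WT rises found in mutants, 49.6%, was 62.0% for genes chosen at 0.5 and 37.9% at 2, and 33.0% to 78.7% with a tumour left out; that of falls, 67.9%, was 50.9% to 84.0%. The causes were not tested. None of the 66 genes was called in the opposite direction under these alternatives. The difference of Usp2 ran from 4.24 to 5.60 for its main probe set or the mean of its probe sets. Its second probe set, tested singly, differed by 3.14 ± 0.40 (limma adjusted p = 0.00731). No paired analysis was possible because the title numbers are not shared between the groups. With 2 high WT and 2 low mutant tumours, the number of arrays limits every count, and genes below log2 4 have only a bound.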

Other observations

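Probe sets with several gene symbols or none in the annotation were read separately. Of 1974 above background, 10 were higher and 2 lower in the high set (limma adjusted p under 0.05 over these probe sets).

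Antibiotic tumour 30 had Arntl and Per2 levels near those of the high set but lay apart from antibiotic tumours 28 and 29 for other genes of the split: Noct was at 6.68 against 10.24 and 9.36, Nrg4 at 5.74 against 8.22 and 8.67, and Afp at 6.63 against 13.18 and 12.42. No test was made of 1 array.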
